A study of Mus musculus with 24 samples.

Results

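The replication-dependent histone genes were taken as the protein-coding mouse genes whose symbols begin with Hist1h, Hist2h, Hist3h or Hist4h, which gave 67 of the 22380 protein-coding genes in the annotation used here. They comprised 6 linker histone H1 genes, 19 H2A genes, 18 H2B genes, 11 H3 genes and 13 H4 genes, and 3 genes of such names annotated as pseudogenes were left out. The series holds 24 chromatin immunoprecipitation sequencing (ChIP-seq) samples of cultured mouse fibroblasts, of which 17 peak lists were analysed and 7 inputs were not used here. The lists cover acetylated lysine 27 of histone H3 (H3K27ac, 7 lists), trimethylated lysine 4 of histone H3 (H3K4me3, 7 lists) and the homeodomain transcription factor PRRX1 (3 lists, from wild-type cells alone). Each group has 1 list, so no difference between lists carries a replicate check and no p-value is given.

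Mouse embryonic fibroblasts (MEF) came from C57BL/6 embryos of day 10 to 13 and were WT, KI or SG. KI is not spelled out in the labels and was read as cells of the mutant line that the labels name 129S-Prrx1tm1Jfm/Mmmh. The methods describe it as carrying lacZ inserted into Prrx1 and as backcrossed to C57BL6. SG marks CRISPR/Cas9 cutting with a guide RNA against Prrx1. Cancer-associated fibroblasts of the mammary tumours of MMTV-PyMT mice on the FVB/NJ background (MMTV_CAF in the labels, CAF here and MMTV in the plots) and fibroblasts of C57BL/6 dorsal skin wounds at day 10 (wound fibroblasts) were WT, which carried the control guide SgNS, or SG. All cells had been immortalized with the human papillomavirus genes E6 and E7, so WT and Prrx1-deleted cells share these oncogenes. Tissue of origin differs between the 3 fibroblast types, and CAF differ from the others in strain as well, so strain and tissue cannot be told apart for CAF. KI and SG are both called Prrx1-deleted below for short, although KI as read here carries an insertion and the paper calls such MEF Prrx1-mutant.

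Replication-dependent histone genes are short, mostly intronless genes that supply the core and linker histones for new chromatin while DNA is copied. They sit in dense clusters, their messages end in a stem-loop in place of a poly(A) tail, and many H2A and H2B genes share a promoter and are read in opposite directions. H3K4me3 and H3K27ac mark the nucleosomes that flank active promoters, and their lists do not measure RNA.

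The 67 genes formed 4 clusters and a pair of single genes. On mm9, the larger cluster of chromosome 13 spanned chr13:23617919-24031720 with 31 genes, from Hist1h4h to Hist1h2aa, and held 5 of the 6 H1 genes. The other cluster of chromosome 13 spanned chr13:21802632-22140545 with 23 genes. The Hist2 cluster spanned chr3:96018839-96087924 with 9 genes, and the Hist3 cluster spanned chr11:58757413-58775176 with 2 genes, Hist3h2ba and Hist3h2a. Hist4h4 on chromosome 6 and Hist1h2al on chromosome 13 stood alone. The annotated 5′ end was used as the transcription start site (TSS). It lay at the coding start itself in 9 genes and within 100 bp of it in 61 of 67. Hist1h2be had a start 35168 bp before its coding sequence, beside Hist1h1e, and distances for it were taken from that start. The 5′ end of Hist2h3c1 also lay over 1 kb from its coding start, beside that of Hist2h2aa1.

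The promoter sequences below are shown because they belong to genes whose marks are described later. They end or begin at the base next to a TSS, read 5′ to 3′, and are NCBIM37 sequence, the same build as mm9. Capitals mark 5 motifs, each searched on both strands. CCAAT is the box bound by NF-Y. The letters TATAAA were searched for the box near which transcription begins. The octamer ATTTGCAT is known from H2B promoters. The element AAACACA is known from H1 promoters. The core TAATTA is bound by many homeodomains, and none of the printed stretches holds it. Hist2h2bb (chr3:96073444-96073643, plus strand) held a PRRX1 summit of CAF at base 61 of the printed stretch. The shared promoters of Hist1h2bf and Hist1h2ad (chr13:23666066-23666249, plus strand) and of Hist1h2ac and Hist1h2bc (chr13:23775818-23776067, plus strand) held PRRX1 summits at bases 49 and 175. The next 3 belong to genes under H3K4me3 in every list: Hist1h1b (chr13:21872495-21872694, minus strand), Hist1h3g (chr13:23627091-23627290, plus strand) and the pair Hist2h2ac and Hist2h2be (chr3:96024804-96025043, plus strand). The last, between the germ cell genes Hist1h2ba and Hist1h2aa (chr13:24026031-24026330, plus strand), had neither histone mark in any list.
Hist2h2bb: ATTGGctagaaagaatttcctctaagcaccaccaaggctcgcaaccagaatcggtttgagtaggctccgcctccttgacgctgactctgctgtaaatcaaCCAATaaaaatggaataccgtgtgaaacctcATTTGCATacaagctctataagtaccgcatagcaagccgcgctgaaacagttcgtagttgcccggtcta
Hist1h2bf-Hist1h2ad: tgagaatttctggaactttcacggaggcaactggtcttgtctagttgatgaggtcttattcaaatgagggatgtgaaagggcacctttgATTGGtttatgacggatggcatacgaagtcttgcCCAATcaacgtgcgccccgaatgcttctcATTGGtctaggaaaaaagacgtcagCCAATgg
Hist1h2ac-Hist1h2bc: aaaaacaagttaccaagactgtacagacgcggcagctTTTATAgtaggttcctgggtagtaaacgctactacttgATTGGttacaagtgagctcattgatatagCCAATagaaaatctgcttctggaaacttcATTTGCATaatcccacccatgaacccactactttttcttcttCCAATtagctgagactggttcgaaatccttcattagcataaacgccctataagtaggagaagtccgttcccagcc
Hist1h1b: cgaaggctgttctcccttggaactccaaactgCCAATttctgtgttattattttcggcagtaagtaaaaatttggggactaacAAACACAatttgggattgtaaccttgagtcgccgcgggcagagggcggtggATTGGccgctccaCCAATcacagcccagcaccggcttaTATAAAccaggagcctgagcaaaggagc
Hist1h3g: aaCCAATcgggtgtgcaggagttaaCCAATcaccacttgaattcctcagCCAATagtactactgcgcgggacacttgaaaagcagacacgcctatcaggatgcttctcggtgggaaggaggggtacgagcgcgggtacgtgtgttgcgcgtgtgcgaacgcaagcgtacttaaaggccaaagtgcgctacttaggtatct
Hist2h2ac-Hist2h2be: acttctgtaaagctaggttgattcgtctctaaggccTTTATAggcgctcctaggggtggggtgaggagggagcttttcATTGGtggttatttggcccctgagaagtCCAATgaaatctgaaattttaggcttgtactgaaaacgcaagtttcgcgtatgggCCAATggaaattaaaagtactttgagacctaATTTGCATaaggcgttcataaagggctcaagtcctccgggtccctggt
Hist1h2ba-Hist1h2aa: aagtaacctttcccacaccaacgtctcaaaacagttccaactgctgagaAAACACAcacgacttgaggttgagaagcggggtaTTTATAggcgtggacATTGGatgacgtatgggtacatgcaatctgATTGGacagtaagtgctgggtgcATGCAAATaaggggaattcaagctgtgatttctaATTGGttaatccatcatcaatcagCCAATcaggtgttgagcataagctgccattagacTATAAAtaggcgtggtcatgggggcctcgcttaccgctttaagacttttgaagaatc

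Over the promoter of 250 bases before and 50 after the TSS, histone genes held more of these letters than protein-coding genes as a whole. CCAAT stood in 57 of 67 promoters (85.1%, against 37.9% of all promoters of this length), TATAAA in 38 (56.7%, against 13.4%) and ATTTGCAT in 15 (22.4%, against 1.72%). The octamer was in 7 H2A and 8 H2B promoters and in no promoter of H1, H3 or H4. AAACACA was in 5 of 6 H1 promoters and in 10 of all 67 (against 6.43% of all promoters). CCAAT was in all 19 H2A, all 18 H2B, all 6 H1 and 10 of 11 H3 promoters, and in 4 of 13 H4 promoters. TAATTA was in 4 of 67 histone promoters, against 4.86% of all promoters. Median GC content was 46.0% in histone promoters and 55.0% over all genes, but 54.1% and 54.8% over 500 bases to each side of the TSS.

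An H3K4me3 region lay over a TSS of 41 histone genes in MEF WT (61.2%, against 52.5% of all genes). It lay over 51 in CAF WT (all genes 51.9%) and over 34 in wound fibroblast WT (all genes 54.0%). In Prrx1-deleted cells the count was 14 in MEF KI (all genes 39.5%), 34 in MEF SG (50.7%), 51 in CAF SG (52.4%) and 30 in wound SG (54.6%). These counts varied far more between lists than did the share of all genes. A region within 1 kb of the TSS was listed at nearly the same number of histone genes in every list. That was so for 58 histone genes in MEF WT, MEF SG, CAF WT, CAF SG and wound WT alike, for 59 in wound SG and for 54 in MEF KI. Over all genes the shares within 1 kb were 55.1% in MEF WT, 53.6% in MEF SG, 54.2% in CAF WT, 54.7% in CAF SG, 57.4% in wound WT, 57.6% in wound SG and 49.9% in MEF KI.

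**Figure D1:**
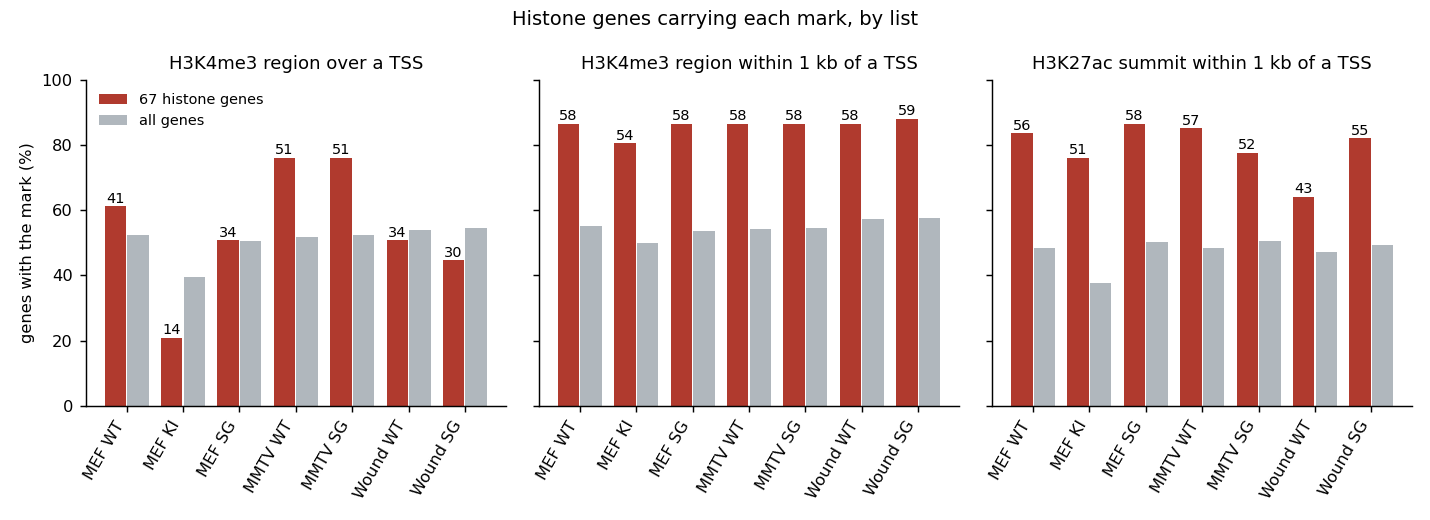
Percent of genes with each mark in the 7 cell populations (x axis), for the 67 histone genes (red, with their count above the bar) and all 22380 protein-coding genes (gray). The red bars range from 14 to 51 genes for a region over the TSS and from 54 to 59 for a region within 1 kb.

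The lists differed in where the region lay, and in many histone genes it lay beside the TSS and not on it. Of the 56 histone genes with an H3K27ac summit within 1 kb of a TSS in MEF WT, 17 had no H3K4me3 region over a TSS (30.4%, against 3.26% of all genes so acetylated). All 17 had a region within 1 kb, at a median of 153 bp from the annotated 5′ end. For other genes of this kind, 163 of 336 (48.5%) had one within 1 kb, and in the other lists that share was 47.2% to 62.9%, except in MEF KI, where it was 88.5%. The same held for 24 of 58 genes in MEF SG (all genes 4.85%), 16 of 43 in wound WT (3.08%), 28 of 55 in wound SG (3.12%), 7 of 57 in CAF WT (2.16%) and 5 of 52 in CAF SG (2.88%). Each of these genes had a region within 1 kb, at list medians of 79 to 212.5 bp. In MEF KI 38 of 51 genes were of this kind (all genes 18.3%), and 36 of the 38 had a region within 1 kb.

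H3K4me3 was found on both sides of such a start, each within 1 kb, in 7 of 17 genes of MEF WT, 19 of 38 of MEF KI, 12 of 24 of MEF SG, 2 of 7 of CAF WT, 1 of 5 of CAF SG, 8 of 16 of wound WT and 18 of 28 of wound SG. Among other acetylated genes without a region over a TSS, that share was 26.5% in MEF KI and 5.70% to 11.0% in the other lists. The gap between the 2 regions had a median of 444 bp in MEF WT and 818 bp in MEF KI. In these dense clusters the flanking region may belong to a neighbor, since 47 of 67 histone genes had another histone TSS within 2 kb. Among genes with none within 2 kb the region was still near: 5 of 5 uncovered genes in MEF WT and 10 of 11 in MEF KI had one within 1 kb. Of such genes, regions on both sides were found at 0 of 5 in MEF WT, 3 of 11 in MEF KI, 2 of 7 in MEF SG, 1 of 2 in each CAF list, 0 of 5 in wound WT and 2 of 6 in wound SG. The part of neighboring genes in the flanking regions was not tested.

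Coverage along the gene dipped near the TSS. Among the 56 acetylated histone genes of MEF WT, 58.9% had H3K4me3 at 100 bp before the TSS, 71.4% at 800 bp before and 96.4% at 500 bp after it. Over all acetylated genes of that list coverage rose steadily, from 40.1% at 800 bp before to 85.5% at 100 bp before and 92.7% at 500 bp after. In MEF KI histone coverage was 58.8% at 800 bp before, 23.5% at 100 bp before and 74.5% at 500 bp after the TSS. In wound SG it was 63.6%, 41.8% and 89.1%, and in CAF WT it was 84.2%, 86.0% and 94.7% at the same positions. Histone coverage fell towards the TSS in the 3 MEF lists and both wound lists, and had almost no dip in both CAF lists, with 87.7% and 90.4% at the TSS. Sequence that recurs in the genome can lose reads in mapping, so 100-base words were counted at the same positions. Words that recur made up 5.97% at the TSS, 13.4% at 100 bp before it and 55.2% at 200 and 300 bp after it. In MEF KI coverage was 33.3% at 200 bp after the TSS, and in MEF WT it was 80.4% there. The part of mapping in the dip was not tested.

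**Figure D2:**
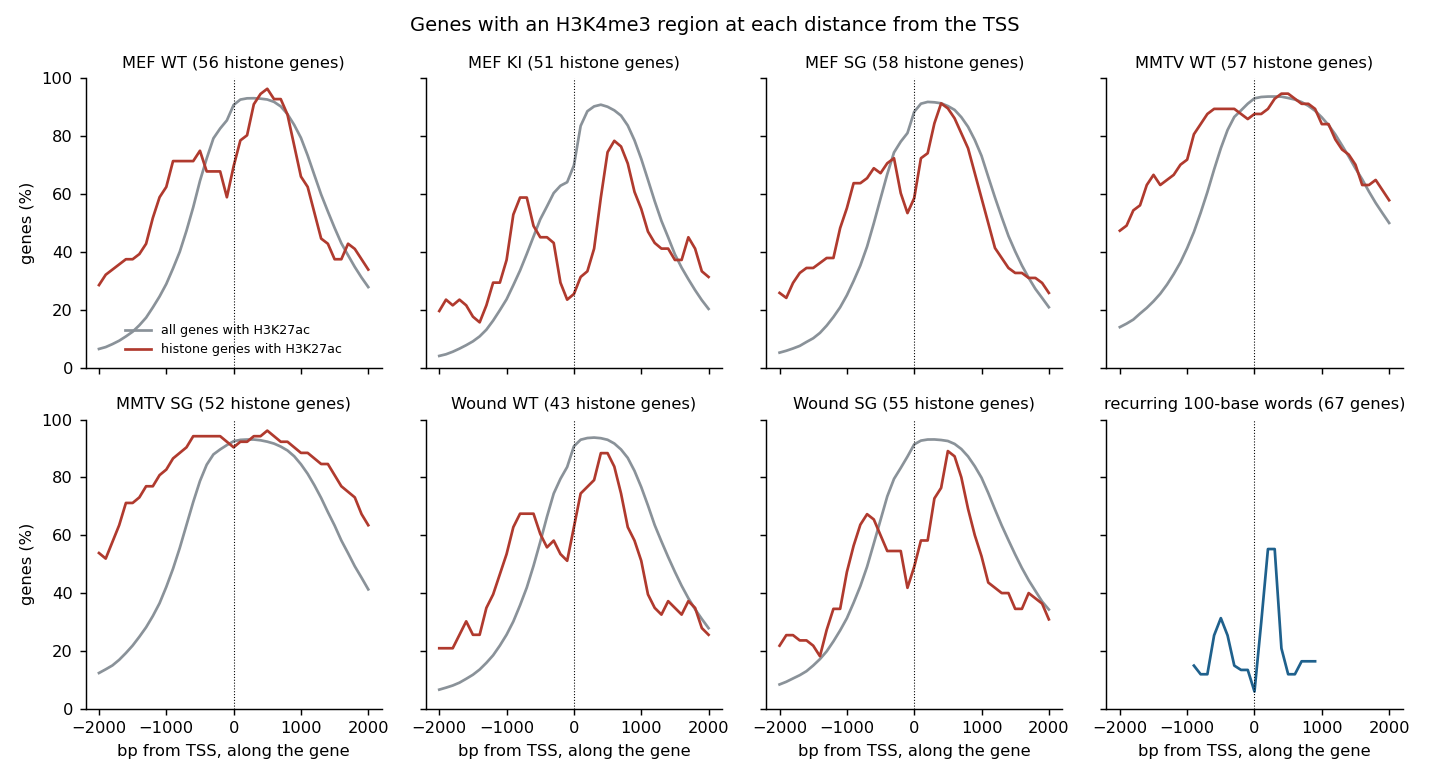
Percent of genes with an H3K4me3 region at each position from 2000 bp before to 2000 bp after the TSS, for histone genes (red) and all genes (gray) that have an H3K27ac summit within 1 kb in the same list. The last panel gives the percent of the 67 histone genes whose 100-base word at that position recurs in the genome. The red curve dips at the TSS in MEF and wound lists and not in CAF, and the recurring words peak at 200 to 300 bp after it.

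H3K27ac summits were also placed to the sides. They were found within 1 kb of a TSS for 56 histone genes in MEF WT (all genes 48.4%), 51 in MEF KI (37.8%), 58 in MEF SG (50.1%), 57 in CAF WT (48.5%), 52 in CAF SG (50.7%), 43 in wound WT (47.3%) and 55 in wound SG (49.3%). The nearest summit lay at a median of 431 bp from the TSS of histone genes in MEF WT, against 201 bp over all acetylated genes. The medians in the other 6 lists were 397 to 502 bp for histone genes and 203 to 237 bp over all. In MEF WT 38 of the 56 genes (67.9%) had 2 or more summits within 1 kb, against 44.4% of all acetylated genes. That share was above all genes in MEF SG (55.2% and 30.7%), CAF WT (57.9% and 35.1%), CAF SG (69.2% and 38.8%) and wound SG (54.5% and 33.0%), and below them in MEF KI (39.2% and 44.4%) and wound WT (30.2% and 41.0%). The score of the best summit, as −log10 p, had medians of 32.5 in histone genes and 43.3 in all acetylated genes of MEF WT. In wound WT these were 14.4 and 29.9.

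The regions over histone TSSs had a lower fold than those of all genes in 6 of the 7 lists, and the median width per gene was larger than over all genes in the MEF and CAF lists but not in the wound lists. With each region counted once, the median in MEF KI was 1753 bp, against 1863 bp over all genes. A region over 4 kb, called broad, covered a TSS of 13 of the 41 marked histone genes in MEF WT (31.7%, against 9.46% of all marked genes), 30 of 51 in CAF WT (28.9%) and 35 of 51 in CAF SG (24.2%). It did so for 2 of 14 in MEF KI (3.75%), 3 of 30 in wound SG (15.6%), 0 of 34 in MEF SG (7.02%) and 0 of 34 in wound WT (8.85%). One region often held several genes: in CAF WT 28 regions covered the 51 genes and 15 of them covered more than 1. The widest, of 10166 bp, covered Hist1h4h, Hist1h2af and Hist1h3g, and was 7490 bp in MEF WT and 2931 bp over the last 2 genes in wound WT. Fold enrichment, the mean over a region against input, had a median of 4.68 at histone genes and 5.62 at all marked genes in MEF WT, 6.23 and 9.85 in CAF WT, and 4.24 and 7.71 in wound WT. MEF KI went the other way, with 4.50 and 3.77, over only 14 genes.

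Over whole clusters, H3K4me3 covered 11.4% of the larger chromosome 13 cluster in MEF WT, 15.7% in CAF WT and 7.03% in wound WT. After Prrx1 deletion it covered 7.30% in MEF KI, 9.99% in MEF SG, 17.2% in CAF SG and 8.42% in wound SG. The smaller chromosome 13 cluster had 12.9% in MEF WT, 10.6% in MEF KI, 11.4% in MEF SG, 21.1% in CAF WT, 21.3% in CAF SG, 9.57% in wound WT and 10.4% in wound SG. At a −log10 p of at least 10, coverage of both chromosome 13 clusters was much lower in MEF KI, MEF SG and both wound lists, as given below. The Hist2 cluster was the most covered of the 3 larger ones in every list, from 16.9% in MEF KI and 18.4% in wound WT to 24.4% in MEF WT and 37.4% in CAF WT. The mean fold over the larger chromosome 13 cluster was 4.61 in MEF WT, 5.74 in CAF WT and 4.03 in wound WT. With 5 kb added at each end, CAF WT was highest of the 3 WT lists in every cluster. Between the outermost genes alone, the Hist3 cluster had 37.7% in MEF WT, 35.6% in CAF WT and 37.9% in wound WT. The CAF lists were also the largest, with 27339 and 29166 regions over 1.89% and 1.93% of the genome, against 13125 to 19641 regions over 0.779% to 1.37% in the other 5. With lists of equal size, the larger chromosome 13 cluster was covered to 14.3% in CAF WT, 11.3% in MEF WT and 4.06% in wound WT, and the smaller to 19.9% in CAF WT and 11.0% in MEF WT, above wound WT.

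Among linker histones, Hist1h1b was the only H1 gene under H3K4me3 in all 7 lists. Its fold was 5.69 in MEF WT, 4.73 in MEF KI, 5.91 in MEF SG, 6.23 in CAF WT, 6.94 in CAF SG, 5.82 in wound WT and 4.46 in wound SG. The highest value was that of CAF SG and the lowest that of wound SG. Hist1h1d, Hist1h1e, Hist1h1c and Hist1h1a were covered in 5, 6, 4 and 5 lists, and none of these 4 in MEF KI. Hist1h1t, the H1 of the testis, had no H3K4me3 over its TSS and no H3K27ac summit in any list.

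Of the core histones, the pair Hist2h2ac and Hist2h2be and their neighbor Hist2h2ab lay under 1 shared region in each of the 7 lists. Its fold was 6.10 in MEF WT, 3.53 in MEF KI, 5.39 in MEF SG, 9.91 in CAF WT, 11.2 in CAF SG, 6.43 in wound WT and 7.84 in wound SG. This was the highest fold of any histone gene in both CAF lists and both wound lists, and in MEF WT. Hist1h2an, an H2A gene, had the lowest fold of MEF WT, at 3.04, and in the same cluster the H2A gene Hist1h2ah had 6.08. In the larger chromosome 13 cluster the MEF WT values ran from 4.02 at the H3 gene Hist1h3e to 5.69 at the region of Hist1h4h, Hist1h2af and Hist1h3g. In the Hist2 cluster the lowest was 5.18, at the H4 gene Hist2h4. Hist3h2a was covered in all 7 lists, at folds of 4.58 to 6.99, and the single gene Hist4h4 in all 7, at 3.14 to 8.39.

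The 13 divergent pairs, 12 of them of an H2A and an H2B gene, had TSSs 168 to 693 bp apart, at a median of 241 bp. Over 7 lists, both genes of a pair lay under H3K4me3 in 42 of 91 cases, 1 alone in 9 and neither in 40. The pair Hist1h2ac and Hist1h2bc was uncovered in MEF WT, MEF KI, MEF SG and both wound lists, where the nearest region lay 295, 343, 37, 112 and 251 bp from the TSS of Hist1h2ac. In CAF WT and SG the pair lay under regions of 4591 and 4933 bp. Both genes had H3K27ac in all 7 lists.

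Of the H3 genes, Hist1h3g, Hist1h3f and Hist2h3b were covered in all 7 lists and Hist2h3c1 in none, and 10 of 11 were covered in MEF WT, 9 in CAF WT and 6 in wound WT. Of the H4 genes, Hist1h4j, Hist1h4k and Hist4h4 were covered in all 7 lists, and 6, 10 and 7 of 13 were covered in the 3 WT lists. H3K27ac was found at 12, 12 and 8 of the 13 H4 genes in the same lists.

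**Figure D3:**
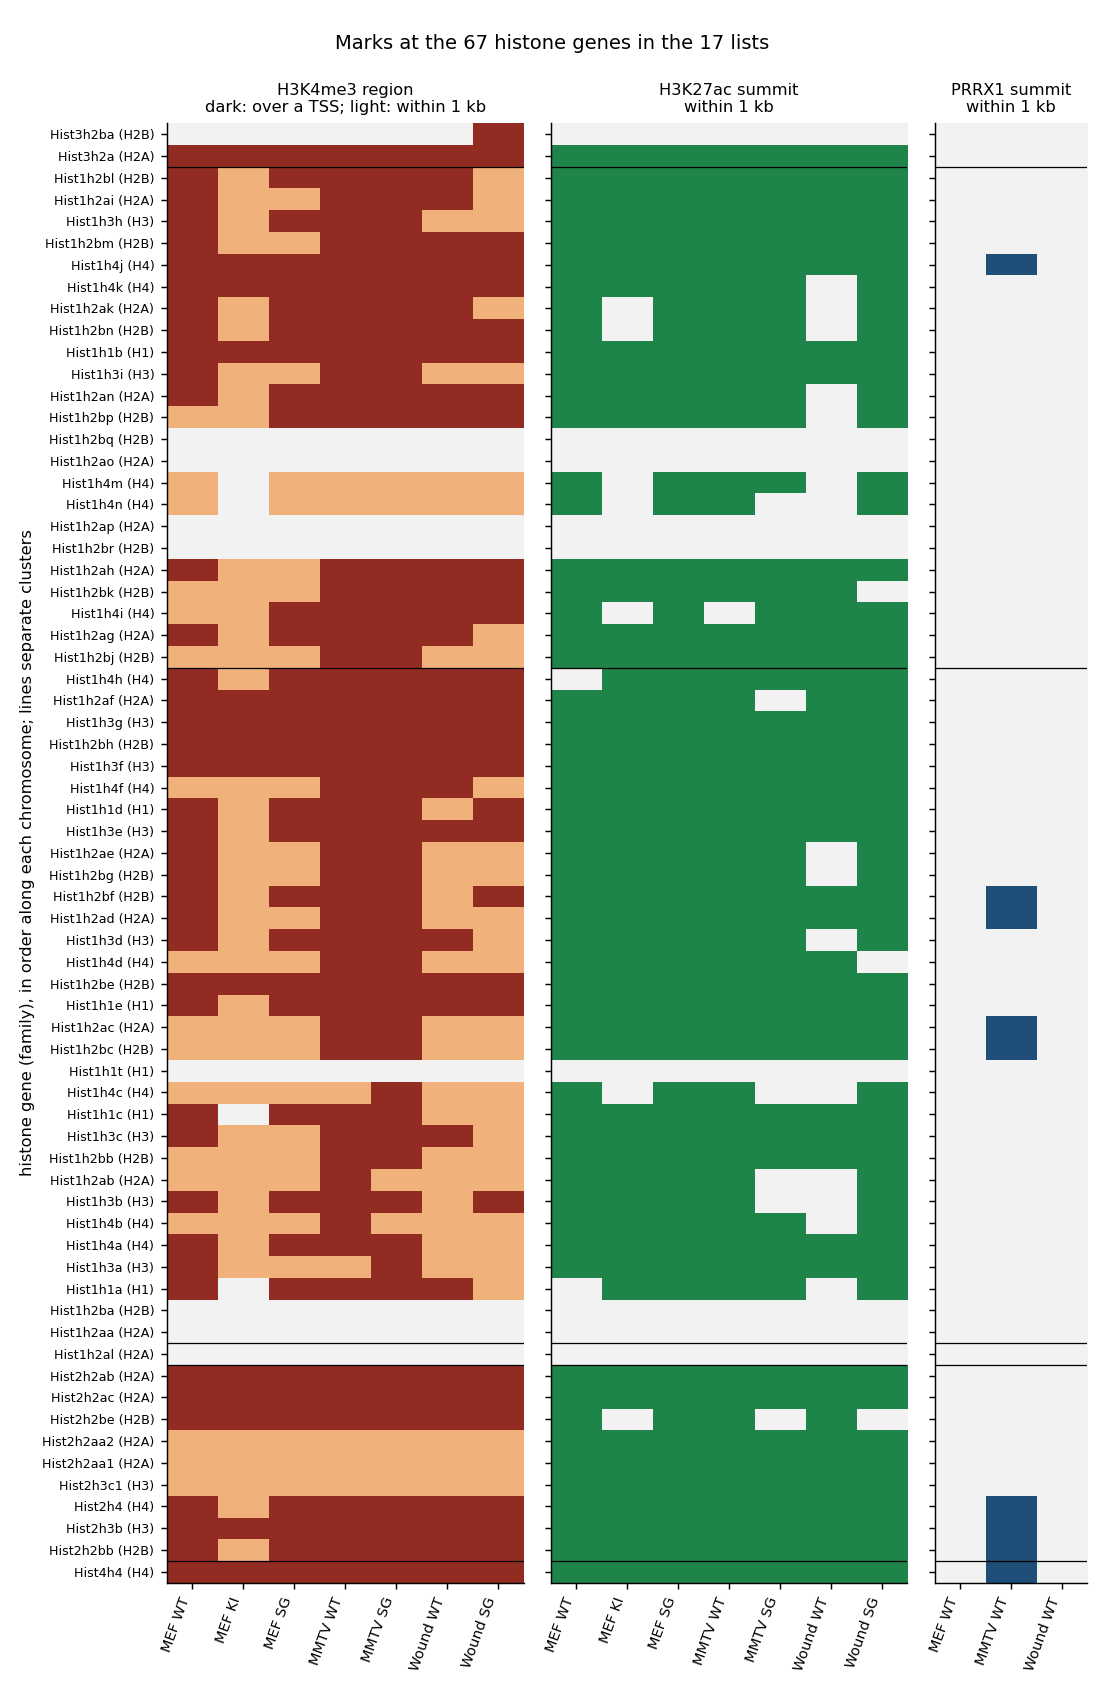
Marks at each of the 67 histone genes (rows, in order along each chromosome) in the 17 lists (columns). Dark red marks an H3K4me3 region over a TSS, orange a region within 1 kb but not over it, green an H3K27ac summit and blue a PRRX1 summit within 1 kb. Of the H3K4me3 cells that are not dark red most are orange, and PRRX1 marks 9 genes in CAF WT alone.

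Across all 7 lists, 14 genes were always under H3K4me3, 40 in 1 to 6 lists and 13 in none. The 13 fell into kinds. Hist1h1t, Hist1h2ba and Hist1h2aa, which are genes of testis chromatin, and the lone Hist1h2al had neither mark in any list and no region within 1 kb. Hist1h2bq, Hist1h2ao, Hist1h2ap and Hist1h2br also had neither, but every 100-base word within 1 kb of their TSSs recurred in the genome, so an absence there cannot be told apart from unmapped reads. Hist1h4m and Hist1h4n, with 85.6% and 81.6% of words recurring, had H3K27ac in 5 and 4 lists, and a region within 1 kb in 6 lists each. Hist2h2aa2, Hist2h2aa1 and Hist2h3c1 had H3K27ac in all 7 lists, with a −log10 p of 70.5, 85.7 and 85.7 in MEF WT, among the highest of the histone genes. Their nearest H3K4me3 region lay 437, 128 and 144 bp from the TSS in MEF WT and 148, 67 and 83 bp in CAF WT, and 47.4% to 53.4% of their words recurred. The values of Hist2h3c1 and Hist2h2aa1 describe 1 promoter, since their annotated 5′ ends almost coincide. Beyond the 13, Hist3h2ba had a region in wound SG alone, with a fold of 3.45, and no H3K27ac in any list.

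Promoters of genes with and without the region over the TSS were compared next. Median GC content was 49.3% in the 13 genes of no list, 44.2% in the 40 of 1 to 6 lists and 45.7% in the 14 of all 7. CCAAT was in 11 of 13, 36 of 40 and 10 of 14, and TATAAA in 7, 25 and 6. H2A genes made up 6 of the 13 and 4 of the 14. With 13 and 14 genes per group, these shares are given as a description.

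Between WT fibroblast types, 30 histone genes were under H3K4me3 in all 3 (44.8%, against 48.7% of all genes) and 7 in CAF alone (10.4%, against 1.34%). The 7 were Hist1h2bj, Hist1h4d, Hist1h2ac, Hist1h2bc, Hist1h2bb, Hist1h2ab and Hist1h4b. A further 10 were shared by MEF and CAF (14.9%, against 0.822%), 4 by CAF and wound fibroblasts (5.97%, against 0.965%), and Hist1h3a was covered in MEF alone. With a region within 1 kb of the TSS counted, 58 genes were marked in all 3 types and none in CAF alone. Over all genes such a region was listed at 55.1% in MEF WT, 54.2% in CAF WT and 57.4% in wound WT. The shares of these patterns over all genes are not given here. The lists differed in whether the region reached over the start. At a −log10 p of at least 10 fewer genes were covered in all 3 types and more in CAF alone, as given below. H3K27ac was present in all 3 types at 41 genes (61.2%, against 44.3% of all genes), and 14 were acetylated in MEF and CAF and not in wound WT (20.9%, against 1.56%).

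Against WT, MEF KI lacked the region over the TSS at 27 of 41 genes (65.9%, against 25.3% of all genes marked in WT) and gained none of 26 (0.724%). MEF SG lacked it at 9 of 41 (22.0%, against 4.31%) and gained 2, Hist1h2bp and Hist1h4i (0.931%). CAF SG lacked it at 2 of 51, Hist1h2ab and Hist1h4b (2.59%), and gained 2 of 16, Hist1h4c and Hist1h3a (3.95%). Wound SG lacked it at 8 of 34 (23.5%, against 2.49%) and gained 4 of 33, Hist3h2ba, Hist1h1d, Hist1h2bf and Hist1h3b (4.39%). In MEF KI, MEF SG and wound SG the share lost was larger for histone genes than for all genes, and 2 of 51 in CAF is a share of 3.92%. The MEF KI list was the smallest, with 13125 regions against 16089 in WT.

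Within 1 kb of the TSS a region was still listed at nearly all of these genes. MEF KI lacked a region within 1 kb at 4 of 58 histone genes, Hist1h4m, Hist1h4n, Hist1h1c and Hist1h1a (6.90%, against 10.1% of all genes). MEF SG, CAF SG and wound SG lacked it at 0 of 58 each, against 3.45%, 2.76% and 2.09% of all genes. For 29 of 67 histone genes another histone TSS lay within 1 kb, so a region counted here may belong to a neighbor. A count of 0 of 58 allows a share of up to 6.21% (95% Wilson interval, counting error only). That limit treats the 58 genes as independent, which genes that share a region are not, so it is too narrow. Hist1h2ai (H2A) and Hist1h3c (H3) lost the region over the TSS in 3 of the 4 comparisons, MEF KI, MEF SG and wound SG. In those lists the nearest region lay 388, 241 and 281 bp from the TSS of Hist1h2ai and 214, 211 and 269 bp from that of Hist1h3c. In WT their fold was 4.68 and 4.30 in MEF and 3.59 and 3.58 in wound fibroblasts. The MEF KI and MEF SG comparisons share the MEF WT list. Among the first 10 genes lost in at least 2 comparisons by position, Hist1h2bl, Hist1h2bm, Hist1h2ak, Hist1h3i, Hist1h2ah, Hist1h2ag, Hist1h2ae and Hist1h2bg followed, all losses with a region still within 1 kb.

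**Figure D4:**
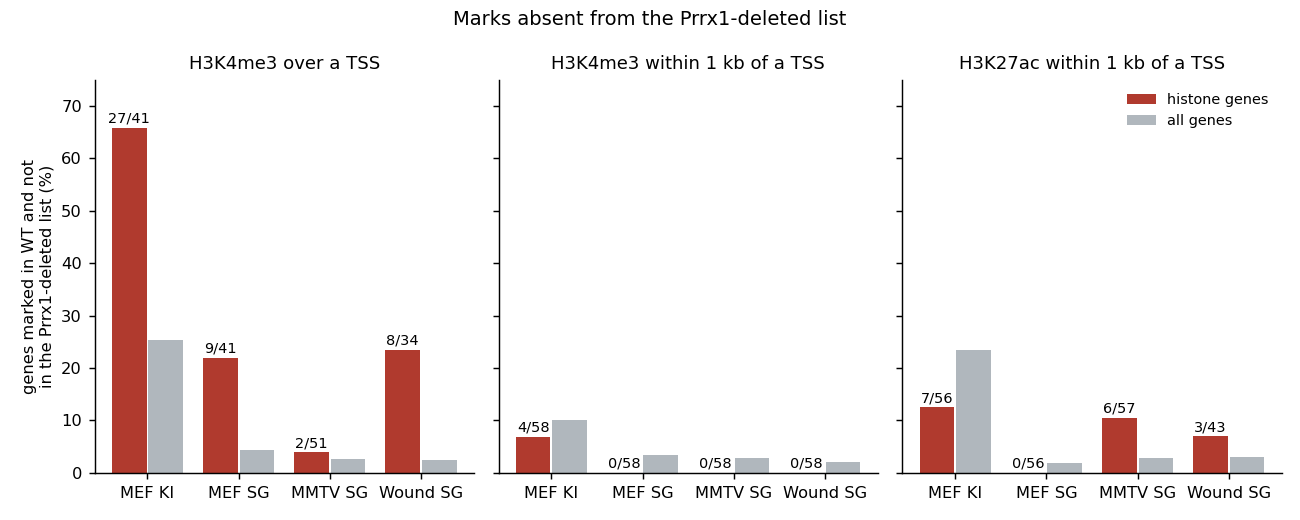
Percent of genes marked in WT that were not marked in the Prrx1-deleted list, for histone genes (red, with counts) and all genes (gray), in the 4 comparisons of MEF KI, MEF SG, CAF SG and wound SG with WT. For a region over the TSS the histone bars stand above the gray bars, from 2 of 51 to 27 of 41, and for a region within 1 kb they stand below them, from 0 of 58 to 4 of 58. For H3K27ac the counts are 7 of 56, 0 of 56, 6 of 57 and 3 of 43.

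For genes that kept the region, its width and fold were compared between lists. The median log2 ratio of its width, deleted over WT, was −0.26 ± 0.49 (SD over 14 genes) in MEF KI, −0.20 ± 0.76 (32 genes) in MEF SG, 0.03 ± 0.35 (49 genes) in CAF and 0.20 ± 0.64 (26 genes) in wound fibroblasts. Over all genes kept these were −0.32, −0.09, −0.05 and 0.18. The log2 ratio of fold was −0.24, −0.17, 0.17 and 0.14 at histone genes and −0.61, 0.08, 0.14 and 0.17 over all genes. The MEF KI ratio at histone genes was lower for regions of −log10 p of at least 10, over few genes, as given below. MEF SG was the comparison in which the fold at histone genes and at all genes had opposite signs, and there 20 of 32 histone genes were lower, against 36.0% of all kept genes. In MEF KI the fold was lower at 13 of 14 genes and the width at 12 of 14, against 96.8% and 93.1% of all kept genes. In CAF the fold was lower at 5 of 49, against 25.4% of all. In wound fibroblasts the fold was lower at 6 of 26 and the width at 5 of 26, against 22.2% and 23.0% of all. Genes that share a region share its ratio.

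The WT regions absent after deletion had lower medians of fold in all 4 comparisons, as they did over all genes. In MEF WT the 27 genes absent in KI had a median fold of 4.53 and a −log10 p of 11.5, and the 14 kept had 5.69 and 19.0. Over all genes the median fold was 4.85 for those absent and 5.78 for those kept. In wound WT the 8 absent in SG had 3.77 and 5.92, and the 26 kept had 4.56 and 8.58. Over all genes these folds were 3.61 and 7.76. The −log10 p over all kept genes was 36.2 and 21.7 in these comparisons, and depth cannot be read from the lists.

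H3K27ac moved otherwise. MEF KI lacked the summit at 7 of 56 genes (12.5%, against 23.4% of all genes) and gained 2 of 11 (1.39%). That loss depended on the call, with 12 of 43 genes (27.9%, against 27.3% of all) for summits within 500 bp and 22 of 56 (39.3%, against 39.3%) for a −log10 p of at least 10. MEF SG lacked it at 0 of 56 (1.97%) and gained 2 of 11 (5.24%). Within 500 bp MEF SG lacked 5 of 43 (11.6%, against 5.10%) and gained 9 of 24 (37.5%, against 6.13%). CAF SG lacked it at 6 of 57 (10.5%, against 2.75%) and gained 1 of 10 (6.77%). Within 500 bp CAF SG lacked 6 of 28 (21.4%, against 6.86%) and gained 17 of 39 (43.6%, against 8.69%), so the count rose from 28 to 39 where it fell from 57 to 52 within 1 kb. Wound SG lacked it at 3 of 43 (3.07%) and gained 15 of 24 (62.5%, against 6.63%). The 15 were Hist1h4k, Hist1h2ak, Hist1h2bn, Hist1h2an, Hist1h2bp, Hist1h4m, Hist1h4n, Hist1h2ae, Hist1h2bg, Hist1h3d, Hist1h4c, Hist1h2ab, Hist1h3b, Hist1h4b and Hist1h1a. Their best −log10 p in wound SG ran from 8.06 at Hist1h2ak and Hist1h2bn to 23.3 at Hist1h3d, and each also had a summit in CAF WT. Wound WT held 13 summits in the smaller chromosome 13 cluster and 25 in the larger, and wound SG held 29 and 50. The wound WT list had 33465 summits in all and wound SG had 43058. With every list limited to its 29325 strongest summits, the gain was 16 of 31 genes (51.6%, against 4.84% of all). Within 500 bp wound SG gained 15 of 44 (34.1%, against 7.63%) and lacked 10 of 23 (43.5%, against 9.82%). Hist2h2be lost its summit in 3 of the 4 comparisons, MEF KI, CAF SG and wound SG, and in those lists the nearest summit lay at −1086, −1122 and −1081 bp (minus for upstream of the TSS), just beyond the 1 kb limit. The same summits lay 845, 881 and 840 bp from its partner Hist2h2ac, which was therefore called in all 7 lists. Hist1h4n and Hist1h4c lost theirs in MEF KI and CAF SG. Hist1h1a gained one in MEF KI, MEF SG and wound SG, and Hist1h4h in MEF KI and MEF SG. These gains too depend on the limit. The nearest WT summit lay at 1308 bp from Hist1h4h in MEF. It lay at −1729 bp from Hist1h1a in MEF and at −1693 bp in wound fibroblasts. Hist1h2bk, lost in wound SG, had a summit at −1002 bp there.

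PRRX1 summits lay within 1 kb of a TSS of 9 histone genes in CAF WT (13.4%, against 7.31% of all genes), of 0 in MEF WT (0.559%) and of 0 in wound WT (5.95%). No histone gene had a PRRX1 summit in 2 or more lists, so the 9 were named after their values were seen. The 9 genes shared 6 summits. The strongest lay 56 bp before the TSS of Hist2h4 with a −log10 p of 7.66, at percentile 61.3 of the scores of the 8000 summits of the list. The summits of the pairs Hist1h2bf and Hist1h2ad and Hist1h2ac and Hist1h2bc, in the shared promoters printed above, both had 5.80. The remaining 3, at Hist1h4j (441 bp after the TSS), Hist4h4 (242 bp after) and Hist2h2bb (140 bp before, and 927 bp after the TSS of Hist2h3b), had 4.58, at percentile 11.1 of the list. The scores were low: with a −log10 p of at least 5, 5 genes remained, and with at least 10, or with the 3048 strongest summits of each list, none did. The median of the whole CAF list was 6.94, and the shares of all genes at these cuts are not given here. The H3K27ac lists begin at a −log10 p of 5.00 to 5.06 and the CAF PRRX1 list at 3.01, so 4 of the 9 genes rest on summits under the lowest score of any H3K27ac list.

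All 6 summits lay inside an H3K4me3 region of CAF WT, and 7 of the 9 genes, all but Hist1h2ac and Hist1h2bc, were covered in MEF WT as well. In wound WT 5 of the 9 were covered. Of all 67 histone genes, 76.1% were covered in CAF WT, 61.2% in MEF WT and 50.7% in wound WT. Over all genes these shares were 51.9%, 52.5% and 54.0%. Neither MEF WT nor wound WT had a PRRX1 summit within 1 kb of the 9 genes. Around the 6 summits (100 bp to each side) TAATTA was in none and CCAAT in 5, against 22.8% and 40.2% of the 1559 CAF summits within 1 kb of any TSS. ATTTGCAT was in 3 of the 6, against 1.67%. Histone promoters as a group also differ from other promoters in these letters. Over 250 bases before and 50 after the TSS, 85.1% of the 67 held CCAAT, 22.4% ATTTGCAT and 5.97% TAATTA. The letters at the 6 summits are therefore not set apart from those of histone promoters. No match says only that these letters are not in the window. The nearest PRRX1 summit to a histone gene in wound WT lay 1144 bp from Hist2h4, at a −log10 p of 3.79. In MEF WT it lay 100447 bp from Hist1h2ah. Of the 9 genes with a PRRX1 summit, none lost the H3K4me3 region over its TSS in CAF SG, and none lost H3K27ac there. Among all histone genes 2 of 51 lost the region there (3.92%, against 2.59% of all genes). H3K27ac was lost at 6 of 57 (10.5%, against 2.75%). With losses this rare, 9 genes cannot show a difference.

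**Figure D5:**
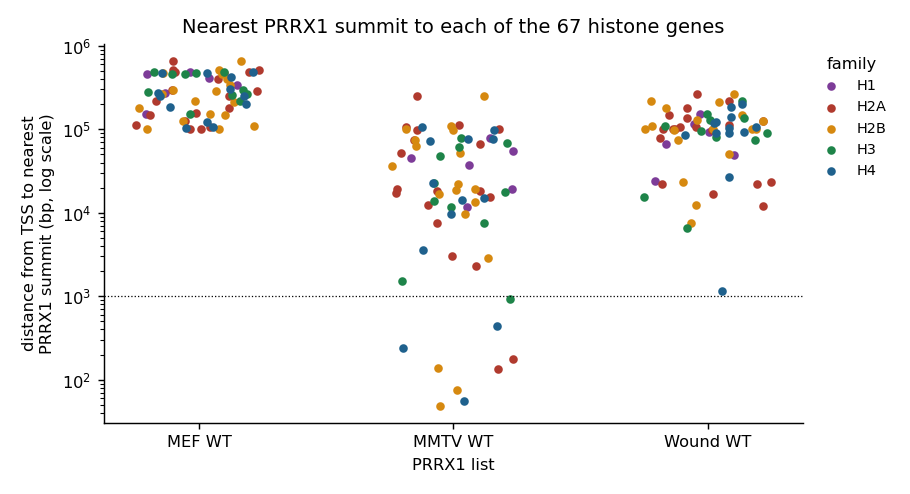
Distance from the TSS of each of the 67 histone genes to the nearest PRRX1 summit (log scale, bp) in the 3 WT lists, colored by histone family, with the dotted line at 1 kb. In CAF WT 9 genes lie under the line, in wound WT the nearest is at 1144 bp and in MEF WT at 100447 bp.

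The genes that serve the histone genes were largely marked. Over all genes an H3K4me3 region lay over a TSS at 39.5% in MEF KI and at 50.7% to 54.6% in the other lists. Of 13 genes of histone mRNA 3′ end processing, such as Slbp (the stem-loop binding protein), 13 were under H3K4me3 in each list but MEF KI, where 10 were. Of 10 genes of histone gene transcription, such as Npat (the coactivator of histone clusters), 9 were covered in MEF WT, 5 in MEF KI, 9 in MEF SG, 10 in both CAF lists, 9 in wound WT and 10 in wound SG. Of 10 replication-independent histone genes, which are expressed outside S phase, 9, 10 and 8 were covered in MEF, CAF and wound WT. Of 6 histone chaperone genes, 5 were covered in MEF SG, 4 in MEF KI and 6 in each other list. None of 5 germ cell histone genes, Hist1h1t, Hist1h2ba and Hist1h2aa among them, was covered in any list, and H1foo had H3K27ac in 4. A PRRX1 summit lay within 1 kb of 1 of the 13 processing genes in CAF WT and 2 in wound WT. The same counts, 1 and 2, held for the 10 transcription genes (all genes 7.31% and 5.95%). In MEF WT it was 0 in both sets (all genes 0.559%). Slbp had such a summit in 1 list and Npat in none. Of 11 other protein-coding genes inside the clusters, 3 to 4 were covered per list, and the Slc17a genes in none.

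The labelled cell type was checked on its markers. Of 8 fibroblast markers, 6 to 8 were under H3K4me3 in each list, and Thy1, in 3 of 7 lists, was the one most often uncovered. Of 10 epithelial, endothelial and blood genes, Krt8, Krt18, Epcam, Pecam1, Cdh5, Ptprc and Cd3e had neither histone mark in any list, and Cdh1 and Kdr were under H3K4me3 in 4 and 6 lists. Kdr, an endothelial receptor gene, had H3K27ac and H3K4me3 regions of 5528 and 6173 bp in the wound WT and SG lists, and a PRRX1 summit in wound WT. Cd68 had H3K27ac in 2 lists. Peak lists cannot show whether Prrx1 was deleted. Its own TSS was under H3K4me3 in all 7 lists, at widths of 4558 to 15484 bp. Prrx1 had an H3K27ac summit within 1 kb in MEF WT, CAF SG and wound SG, at a best −log10 p of 10.9, 24.2 and 49.6, and in none of the other 4 lists.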

How the data were processed

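ChIP-seq of 24 samples was deposited as 17 peak lists on mm9. Per the labels and the methods, the authors trimmed reads with Trimmomatic, mapped them with Bowtie, removed duplicates and called peaks with MACS2 against input, in its broad mode for H3K4me3. For PRRX1 the methods also name IgG as a control. The deposited H3K27ac and PRRX1 lists give 1-bp summits scored as −log10 p by the authors. The deposited H3K4me3 regions give the authors' fold enrichment over input, −log10 p and a rounded score. Whether replicates were pooled for PRRX1, and how its list of exactly 8000 summits was limited, is not given in the sources used here. The p threshold that the methods give for sharp peaks, a −log10 p of 5, is met by the H3K27ac lists and not by the PRRX1 lists. No list holds read counts, so depth is unknown.

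Genes came from the GENCODE vM1 annotation of NCBIM37. H3K4me3 was called where a region covered a TSS of any protein-coding transcript, and H3K27ac or PRRX1 where a summit lay within 1 kb of one. Clusters joined histone TSSs at most 250 kb apart, with 5 kb added at each end. A gene's distance to a region was taken from its 5′ end. A 100-base word recurred if it stood elsewhere in the genome, on either strand. The 95% Wilson limit printed above is for counting error only and treats genes as independent. Other shares are printed without an interval, and no test was run with 1 list per group. The genes and lists were chosen with earlier results of these data known. Genes named were those losing or gaining a mark in at least 2 comparisons (up to 10, most comparisons first, then by position), the strongest, weakest and widest regions of each cluster, genes of 0 or 7 lists and genes with PRRX1 in at least 2 lists. Others were named after their values were seen. Alternatives were a 1 kb distance for H3K4me3, 500 bp and 2 kb for summits, a −log10 p of at least 10 (5 for PRRX1), lists of equal size, the gene's 5′ end alone, other cluster ends and a wider promoter. One promoter sequence is not reported here. Analyses used Python 3.11.15, numpy 2.4.6, pandas 2.3.3 and scipy 1.17.1, and were tested on simulated data.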

Additional observations from a re-analysis of the deposited data

Results flagged for a closer look

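Under the Prrx1 guide the fibroblast types moved in opposite directions in 3 measures of the histone genes, and none of these differences was tested. The number of histone genes with H3K27ac changed by 2 in MEF, by -5 in CAF and by 12 in wound fibroblasts. With summits within 500 bp the changes were 4, 11 and 5, all in 1 direction. Over all genes the count within 1 kb rose in each type, from 10831 to 11223 in MEF, from 10859 to 11340 in CAF and from 10586 to 11043 in wound fibroblasts. The median log2 ratio of H3K4me3 width, SG over WT, was -0.20 in MEF, 0.027 in CAF and 0.20 in wound fibroblasts, with an SD over genes of 0.76, 0.35 and 0.64. Over all genes it was -0.09, -0.05 and 0.18. The median log2 ratio of H3K4me3 fold was -0.17, 0.17 and 0.14 in the same order, with an SD of 0.25, 0.13 and 0.19, and 0.08, 0.14 and 0.17 over all genes.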

How the results depend on the processing

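Of the values recomputed, 248 stayed close to the value reported and 80 moved. By replicate number, no paired analysis was possible because each group has 1 list. Across fibroblast types WT and SG form 3 pairs, whose values stand side by side and on which no test was run. The cause of each change was not tested, apart from what the other definition itself adds or removes. With a region within 1 kb in place of over the TSS, H3K4me3 was called at 54 histone genes in MEF KI, 58 in MEF SG and wound WT and 59 in wound SG, losses were 4, 0, 0 and 0 in MEF KI, MEF SG, CAF and wound cells, gains 0, 0 and 1 in the last 3, 58 genes were marked in all 3 WT types, 0 in CAF alone and 9 in none.

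Regions over histone TSSs had lower scores than those of all genes. The median −log10 p was 13.5 against 35.0 in MEF WT and 7.33 against 21.4 in wound WT. Shares over all genes are not given for the stricter score that follows. With a −log10 p of at least 10, H3K4me3 was called at 4, 16, 8 and 6 genes in MEF KI, MEF SG, wound WT and wound SG, losses were 16 in MEF SG and 3 in wound, gains 0 and 1, and 8 genes were marked in all 3 types and 18 in CAF alone. The log2 fold ratio of MEF KI was then -0.79. Coverage of the smaller chromosome 13 cluster was 3.47%, 6.01%, 2.65% and 1.04% in those 4 lists, of the larger 0.252%, 3.30%, 0.519% and 0.0906%, and of the Hist2 cluster 7.73% in MEF KI, 6.40% in wound WT and 13.8% in wound SG. With lists of equal size, wound SG had 19 genes, 2 gains and 5.60% and 4.38% of the chromosome 13 clusters, and wound WT 4.06% of the larger. With ends at the outermost genes, the Hist3 cluster was covered to 26.2%, 37.1%, 37.9% and 43.8% in MEF KI, MEF SG, wound WT and wound SG, and to 37.7% in MEF WT and 35.6% in CAF WT, so that CAF WT was then the lowest WT list.

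With H3K27ac summits within 500 bp, 28 genes were called in CAF WT (9850 of all 22380 genes), 23 in wound WT (9871 of all) and 28 in wound SG. Losses were then 12, 5 and 10 in MEF KI, MEF SG and wound, gains 5, 9 and 17 in MEF KI, MEF SG and CAF, and 11 genes were acetylated in all 3 WT types, 3 in CAF alone and 19 in none. Within 2 kb, losses were 3 in CAF and 0 in wound, gains 0, 1 and 0 in MEF KI, MEF SG and CAF, and 0 genes were acetylated in CAF alone. At a −log10 p of at least 10, losses were 22 and 1 and gains 0 and 1 in MEF KI and MEF SG. With equal sizes, losses were 1 in MEF SG and 10 in CAF, gains 4 in MEF SG, and 2 genes were acetylated in CAF alone. PRRX1 was called at 5 genes of CAF WT at a −log10 p of at least 5, and at 0 at 10 or with equal sizes. Within 2 kb it was called at 1 gene in wound WT. An alternative chosen after seeing the data left out 6 genes of recurring sequence and gave 9 genes without H3K4me3 and 5 without H3K27ac in any WT type. In promoters of 500 bases to each side, GC content was 59.3%, 55.1% and 51.7% in genes of 0, 1 to 6 and 7 lists.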
